A study of Mus musculus with 3 samples.

Results

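The MHC class II presentation genes described here are the 10 mouse genes H2-Aa, H2-Ab1, H2-Eb1, Cd74, Ciita, H2-DMa, H2-DMb1, H2-DMb2, H2-Oa and H2-Ob, taken by symbol from the 32285 features of 3 single-cell count matrices. All 10 had at least 1 unique molecular identifier (UMI, 1 counted mRNA molecule) in every library. The cells came from tibialis anterior muscles of C57/BL6J mice, collected 4 days after damage by injected BaCl2. Values in sets of 3 are given in the order of the groups: young PBS (3 to 4 months of age, injected with PBS), then old PBS (24 to 26 months, injected with PBS), then old rMETRNL (24 to 26 months, injected intramuscularly with recombinant meteorin-like protein after the damage). Pairs of ratios are given as old PBS over young PBS, then old rMETRNL over old PBS. Every group was injured, so no uninjured muscle serves as a baseline. Each group is 1 library made from pooled muscles of triplicate mice, so no difference between groups has a replicate check, no p-value is given, and every interval below covers counting error only. Old PBS was the partner in both main comparisons, which are therefore not independent of each other.

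MHC class II molecules carry peptides from engulfed or recycled proteins to the surface of antigen-presenting cells, where CD4 T cells read them. H2-Aa and H2-Ab1 encode the alpha and beta chain of the I-A molecule and H2-Eb1 the beta chain of I-E, whose alpha chain gene is not functional in mice of the C57BL/6 background. Cd74, the invariant chain, holds new class II molecules until they reach the endosome, and Ciita, the class II transactivator, switches the whole set on. H2-DMa with H2-DMb1 or H2-DMb2 forms H2-DM, which exchanges peptides in the groove, and H2-Oa with H2-Ob forms H2-O, an inhibitor of H2-DM known from B cells and some dendritic cells. In muscle under repair the class II bearing cells are chiefly monocytes, macrophages and dendritic cells that enter after the injury.

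In the GRCm38 annotation, 8 of the 10 genes lie within 224.3 kb of chromosome 17, from 34092340 to 34316674, and all of them are protein coding. H2-Oa is the first of them (34092340 to 34095234) and H2-Eb1 the last (34305867 to 34316674). H2-DMb2 (34143307 to 34151555) and H2-DMb1 (34153072 to 34160230) are close neighbours with much alike sequences, so the split of UMIs between them is uncertain. Ciita lies on chromosome 16 (10480059 to 10528418).

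Class II genes share a promoter module of an X box and a Y box, on which the factors that recruit Ciita assemble, and its cores are shown here to set the upstream sequences of the genes side by side. Any part of these sequences in the levels was not tested. The 250 bases before the start site were read from RefSeq promoters (GRCm38.p6), which held 8 entries for 7 of the 10 genes. They were searched on both strands for the Y box core ATTGG and the X box core ACNGATG, which do not overlap in any member shown. Both cores stood within 40 bases of each other in 3 of the 7 genes, H2-Eb1, H2-DMb1 and H2-DMb2, against 1.01% of 32544 different promoters of the same length, of which 33.8% held the Y box core and 8.32% the X box core. From the X box core on, the 30 bases of these 3 genes read as follows, 5′ to 3′ with the core in capitals, at chr17:34305779-34305808 for H2-Eb1, chr17:34153100-34153129 for H2-DMb1 and chr17:34145129-34145158 for H2-DMb2, all on the plus strand.
H2-Eb1: ACTGATGatgctggactcctttgatgctga
H2-DMb1: ACTGATGatgctaggctgattcactcagtg
H2-DMb2: ACCGATGatgctaggctaagtcacttagtg
The Y box core followed after 22 bases in H2-Eb1 and after 23 bases in H2-DMb1 and H2-DMb2.

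The upstream sequences of H2-Eb1 (chr17:34305617-34305866, plus strand) and of H2-DMb2 (chr17:34144999-34145235, plus strand) show both cores close together. In that of H2-Aa (chr17:34287824-34288073, minus strand) the exact matches to the cores lie far apart. The H2-DMb2 stretch lies before the RefSeq start site but inside the annotated span of the gene given above, which begins further upstream. Capitals mark every core found on either strand.
H2-Eb1: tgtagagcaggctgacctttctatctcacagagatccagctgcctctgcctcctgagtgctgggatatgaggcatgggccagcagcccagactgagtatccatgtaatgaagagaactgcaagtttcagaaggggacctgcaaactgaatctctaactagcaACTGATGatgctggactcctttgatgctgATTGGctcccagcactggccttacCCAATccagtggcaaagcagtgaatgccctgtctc
H2-DMb2: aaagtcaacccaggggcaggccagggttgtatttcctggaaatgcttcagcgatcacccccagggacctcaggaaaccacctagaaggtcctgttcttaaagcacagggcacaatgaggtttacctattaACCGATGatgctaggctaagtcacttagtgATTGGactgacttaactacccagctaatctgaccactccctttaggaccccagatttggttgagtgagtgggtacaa
H2-Aa: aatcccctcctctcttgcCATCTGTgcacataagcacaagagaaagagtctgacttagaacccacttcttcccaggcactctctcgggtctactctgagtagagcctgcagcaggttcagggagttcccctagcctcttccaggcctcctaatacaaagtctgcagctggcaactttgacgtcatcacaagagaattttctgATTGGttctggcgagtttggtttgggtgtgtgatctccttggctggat
In H2-Aa the exact matches were 177 bases apart and on opposite strands, and in H2-Oa they were 87 bases apart. H2-Ob and 1 of the 2 start sites of H2-DMa held an exact match to the Y box core alone, and the other start site of H2-DMa held neither. A match of letters is a description and not a bound site. Boxes that differ from these letters were not searched for, so a missing or distant match does not show that a box is missing or displaced.

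The libraries held 12168 to 14012 barcodes and 179295668 to 228966697 UMIs, and 31806 of 38748 barcodes were kept, with medians of 15100, 13698 and 14507 UMIs per kept cell. The share of kept cells under 2000 UMIs was 2.36%, 7.42% and 5.45%, and 58 to 80 barcodes were shared by a pair of libraries. Levels are given as CPM, the UMIs of a gene scaled to the total UMIs of the cells they were summed over. Cells were grouped with the class II genes left out, and groups are called "-like" after their marker genes. The macrophage/monocyte-like class, with all 12 of its markers detected, held 6360, 6119 and 6961 cells. The dendritic-like class, with all 10 of its markers detected, held 488, 327 and 543 cells. The B-like class held 12, 23 and 21 cells and is too small for more than a rough level. In bulk sums over a class, fewer cells with a gene and less RNA per cell cannot be told apart.

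Class II chain RNA was highest in dendritic-like cells and in the monocyte-like cells, and low in macrophage-like cells with Spp1 and Gpnmb. The summed level of the 3 chains, H2-Aa, H2-Ab1 and H2-Eb1, lay between 35652 and 42127 CPM over the 3 libraries in Cd209a dendritic-like cells, the sub-cluster led by Cd209a and Klrd1. It lay between 27664 and 36000 CPM in mature dendritic-like cells (Fscn1, Ccr7) and between 27908 and 28535 CPM in Xcr1 dendritic-like cells, the type known for presenting dead-cell antigen. The ranges of mature and Xcr1 dendritic-like cells overlapped, and so did those of mature and Cd209a dendritic-like cells. A Ly6c2 monocyte-like sub-cluster led by Cd209a and Ifitm6 followed with 25393 to 27489 CPM, and overlapped the Ly6c2 monocyte-like sub-cluster led by Ly6c2 and Plac8, with 16853 to 26602 CPM.

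Further down the order, the macrophage-like sub-clusters spread widely. The unnamed sub-cluster led by Retnla and Mmp12 had 9964 to 15441 CPM, the Il1a/Slc7a11 macrophage-like cells 5967 to 7949 CPM and the interferon-response macrophage-like cells 4282 to 7650 CPM. Lyve1 macrophage-like cells had 3275 to 7483 CPM in the sub-cluster led by Ccl7 and Hbegf and 1610 to 6384 CPM in the sub-cluster led by Ccl8 and Cd163. No marker of the Lyve1 list was among the leading genes of the Ccl7 and Hbegf sub-cluster, so its name is loose. Spp1/Gpnmb macrophage-like cells had 659.7 to 1344 CPM. Plasmacytoid dendritic-like cells had 3599 to 4198 CPM, far below the other dendritic-like cells.

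**Figure D1:**
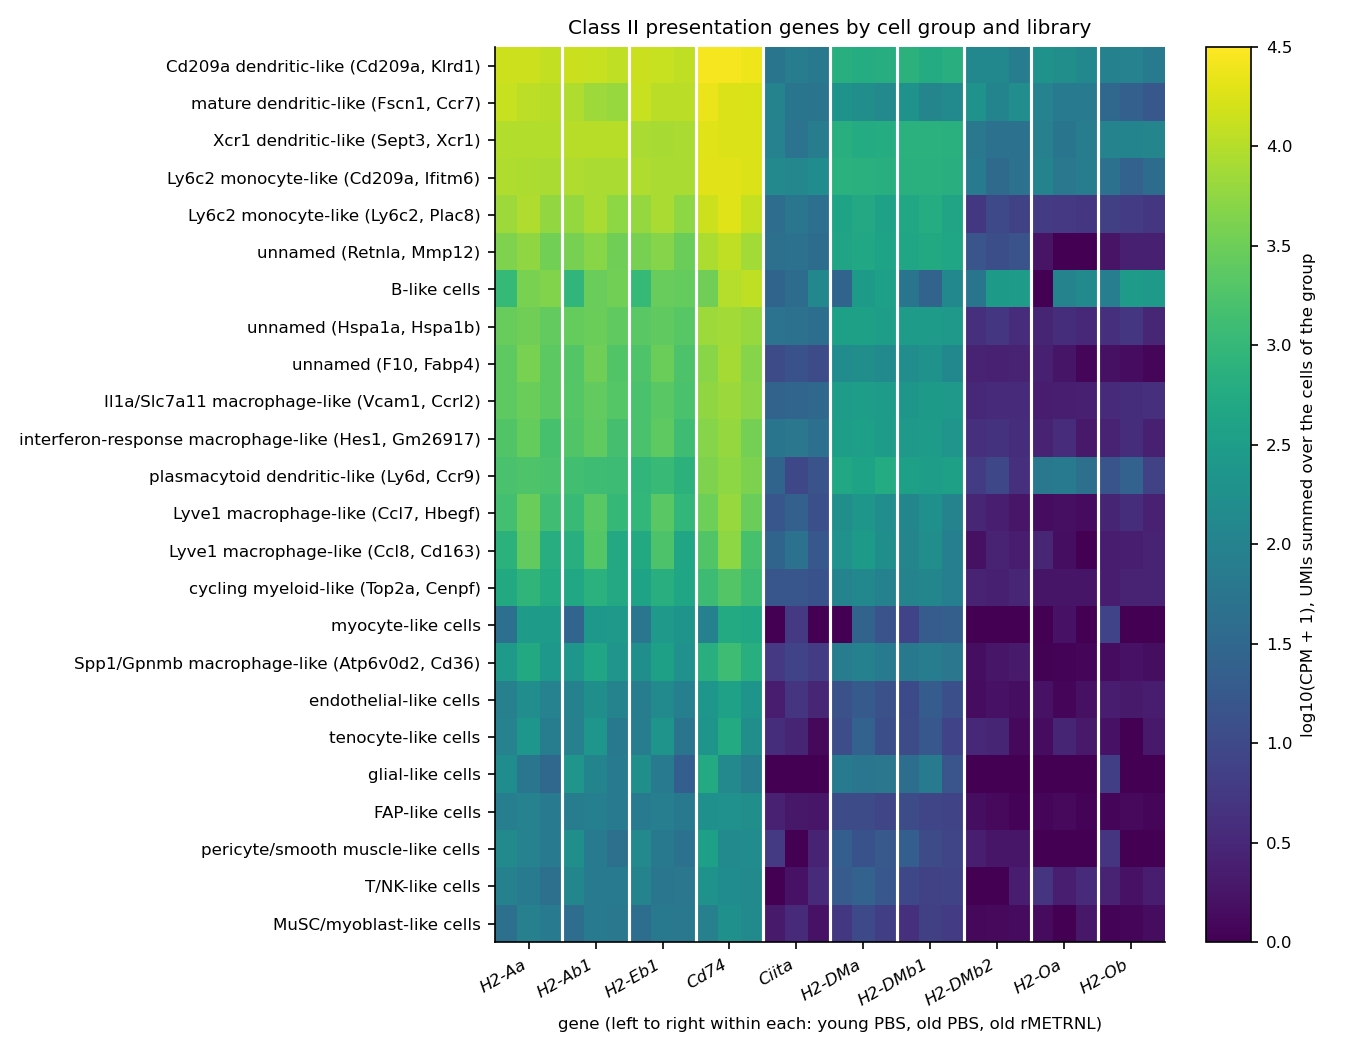
Heat map of the level of each of the 10 class II presentation genes (colour, log10 of CPM + 1) in each cell class or myeloid sub-cluster (rows); within each gene the 3 columns keep the order of the groups. The chains and Cd74 are high through the dendritic-like and Ly6c2 monocyte-like rows, while H2-Oa, H2-Ob and H2-DMb2 are visible in few rows.

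Outside the myeloid and B-like cells chain RNA was low in most classes. It came to 124.6, 228.1 and 194.1 CPM in MuSC/myoblast-like cells, muscle stem cells and their offspring. It came to 230.2, 267.5 and 208.0 CPM in FAP-like cells (fibro/adipogenic progenitors), and to 310.9, 196.4 and 173.9 CPM in T/NK-like cells. The levels in these 3 classes were 2.08% to 5.19% of the level in macrophage/monocyte-like cells of the same library, and the summed level of the 12 macrophage/monocyte markers in the same 3 classes was 1.71% to 6.85% of its own level there. Some other classes reached higher levels in single libraries, with 128.6, 830.0 and 788.4 CPM in myocyte-like cells from 18, 1290 and 363 UMIs, a range that overlapped that of Spp1/Gpnmb macrophage-like cells. Tenocyte-like cells had up to 669.4 CPM, glial-like cells up to 547.3 CPM and pericyte/smooth muscle-like cells up to 448.0 CPM.

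The genes differed in which cells held their UMIs. Macrophage/monocyte-like cells held 73.6%, 81.6% and 72.1% of all chain UMIs, and dendritic-like cells 23.98%, 16.3% and 25.4%, although dendritic-like cells gave only 2.64% to 3.095% of all UMIs. Ciita was held by macrophage/monocyte-like cells to 84.8% to 88.1%, and H2-DMa to 84.7% to 89.5%. H2-Oa, in contrast, was held by dendritic-like cells to 63.8%, 73.5% and 65.4%. H2-Ob was held by dendritic-like cells to 56.5% to 60.3% and H2-DMb2 to 50.4% to 56.4%.

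In macrophage/monocyte-like cells the chain and invariant chain levels were highest in old PBS and lowest in old rMETRNL. The chain sum was 5993, 6954 and 4670 CPM, which gave ratios of 1.16 (95% interval 1.156 to 1.165) and 0.672 (0.669 to 0.674), and 0.779 for old rMETRNL over young PBS. H2-Aa had 2195, 2642 and 1713 CPM, with ratios of 1.204 and 0.648. H2-Ab1 had 2013, 2266 and 1552 CPM, with ratios of 1.13 and 0.685. H2-Eb1 had 1785, 2046 and 1405 CPM, with ratios of 1.15 and 0.687. The 3 chains thus differed between the groups nearly in step.

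Cd74 (chromosome 18, 60803848 to 60812652) went with the chains in the macrophage/monocyte-like class. It had 5049, 5654 and 3857 CPM, or 1.12-fold (1.116 to 1.124) and 0.682-fold (0.679 to 0.685). The genes of regulation and peptide exchange did not share the higher level in old PBS in the class as a whole. Ciita had 32.8, 25.8 and 24.6 CPM, or 0.786-fold (0.747 to 0.828) and 0.952-fold (0.902 to 1.004). H2-DMa had 257.7, 244.6 and 207.7 CPM, or 0.949-fold and 0.849-fold, and H2-DMb1 had 226.2, 222.0 and 176.5 CPM, or 0.981-fold and 0.795-fold. The first ratio turned above 1 for all 3 genes, at 1.11, 1.12 and 1.15, when every sub-cluster was given the share of UMIs it had in young PBS.

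In the class as a whole the scarce genes were lowest in old PBS, an order that did not hold under every alternative. H2-Oa had 4.23, 1.42 and 2.51 CPM in the macrophage/monocyte-like class, or 0.336-fold (0.276 to 0.408) and 1.77-fold (1.44 to 2.18). H2-DMb2 had 4.22, 2.67 and 3.30 CPM, or 0.634-fold (0.542 to 0.741) and 1.24-fold (1.05 to 1.45). H2-Ob had 3.24, 2.28 and 2.42 CPM, or 0.704-fold (0.591 to 0.837) and 1.06-fold (0.887 to 1.27). Old rMETRNL over old PBS lay below 1 under 7 of 14 alternatives for H2-Oa and for H2-DMb2 and under 8 of 14 for H2-Ob, among them leaving out 1 sub-cluster, led by Cd209a and Ifitm6 (0.851, 0.937 and 0.767). Old PBS over young PBS lay above 1 under 0, 3 and 6 of 14 alternatives for the same 3 genes.

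**Figure D2:**
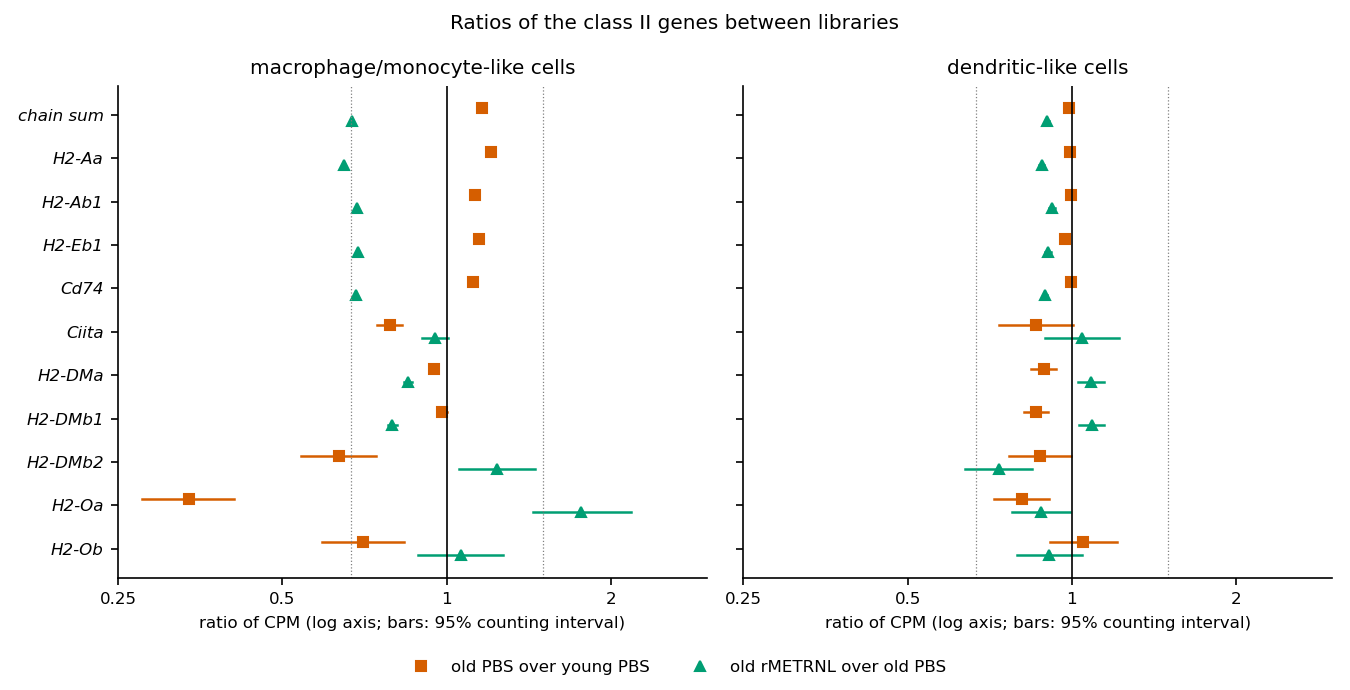
Ratio of CPM on a log axis for each class II presentation gene in macrophage/monocyte-like and dendritic-like cells, for old PBS over young PBS and for old rMETRNL over old PBS; bars are 95% counting intervals and dotted lines mark 1.5-fold in either direction. In macrophage/monocyte-like cells the chains and Cd74 lie right of 1 for the first ratio and left of 1 for the second, and H2-Oa lies the other way, although its second ratio was 0.851 without the sub-cluster led by Cd209a and Ifitm6.

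Past 1.5-fold, 0 of the 10 class II genes in this class were higher and 2 lower in old PBS over young PBS, H2-Oa and H2-DMb2, where 6.52% of 14411 genes with at least 50 UMIs were higher and 6.96% lower. In old rMETRNL over old PBS 1 was past it higher, H2-Oa, and 1 lower, H2-Aa, where 5.88% of genes were higher and 3.77% lower. The median log2 ratio of the 10 was -0.05 and -0.28, against 0.0041 and 0.05 over all tested genes. Under 2 other clustering resolutions, a looser cell filter, marker gates or clustering with class II genes, 0 genes were past 1.5-fold in the first comparison, where 13.1% to 15.5% of all tested genes were, and 4 in the second, all lower, where 9.62% to 11.9% were.

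Some of these class values moved with the make-up of the class. The sub-cluster led by Cd209a and Ifitm6 held 302, 55 and 256 cells. Its summed dendritic markers were 28.2% to 35.6% of their level in the dendritic-like class, and its macrophage/monocyte markers 52.0% to 53.3% of theirs. It held 68.8%, 21.1% and 62.6% of the H2-Oa UMIs of the class, 44.2%, 6.37% and 30.1% of the H2-DMb2 UMIs and 128 of 320, 12 of 228 and 90 of 276 of the H2-Ob UMIs, from 2.81%, 0.488% and 2.07% of the UMIs of the class. Without that sub-cluster H2-Oa had 1.36, 1.13 and 0.959 CPM, or 0.831-fold (0.640 to 1.08) and 0.851-fold, and H2-DMb2 1.04-fold and 0.937-fold. H2-Ob was then 1.09-fold and 0.767-fold, Ciita 0.847-fold and 0.864-fold, and the chain sum 1.28-fold and 0.616-fold.

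The other sub-clusters also took unequal shares. The largest named sub-cluster of the class was interferon-response macrophage-like cells in young PBS (1406 of 6360 cells), Il1a/Slc7a11 macrophage-like cells in old PBS (1570 of 6119) and Spp1/Gpnmb macrophage-like cells in old rMETRNL (1071 of 6961). With every sub-cluster given the share of UMIs it had in young PBS, the chain sum of the class was 1.37-fold for old PBS over young PBS, 0.662-fold for old rMETRNL over old PBS and 0.908-fold for old rMETRNL over young PBS. Ciita was then 1.11-fold and 0.826-fold, and H2-DMa 1.12-fold and 0.834-fold. Both turned from lower to higher in old PBS over young PBS, as did H2-DMb1, so their direction in the class was not the same once its make-up was held.

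Within the sub-clusters the chains were highest in old PBS almost throughout. The chain sum was higher in old PBS than in young PBS in 10 of 11 sub-clusters of the macrophage/monocyte-like class, with a median ratio of 1.41 and 5 past 1.5-fold. It was lower in old rMETRNL than in old PBS in 10 of 11, with a median of 0.633, a range of 0.252 to 1.008 and 7 past 1.5-fold. The exception in both was the sub-cluster led by Cd209a and Ifitm6, at 0.924-fold and 1.008-fold. Cd74 was above 1 in 11 of 11 for the first ratio, with a median of 1.35, and below 1 in 11 of 11 for the second, with a median of 0.620. Old rMETRNL over young PBS had a median chain ratio of 0.946 and a range of 0.787 to 1.08.

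Among the 11 sub-clusters of the macrophage/monocyte-like class, each with at least 50 cells in every library, Lyve1 macrophage-like cells differed most in the chain sum. The unnamed sub-cluster led by Ctsk and Slc9b2, with 61, 8 and 17 cells, was not among them and had 3.80-fold and 0.411-fold. In the Lyve1 sub-cluster led by Ccl8 and Cd163 the chain sum was 1984, 6384 and 1610 CPM, or 3.22-fold (3.12 to 3.31) and 0.252-fold (0.246 to 0.259). In this sub-cluster H2-Aa had 770.2, 2591 and 642.3 CPM, H2-Ab1 663.9, 2037 and 521.1 CPM and H2-Eb1 550.4, 1756 and 446.6 CPM. Old PBS was highest for each chain, and the chain sum of old rMETRNL over young PBS was 0.811-fold. Cd74 in these cells was 2.86-fold and 0.288-fold, and Ciita, with 27.6, 45.8 and 15.8 CPM from 93 to 108 UMIs, was 1.66-fold (1.24 to 2.23) and 0.345-fold (0.260 to 0.457). H2-DMa was 1.55-fold and 0.593-fold and H2-DMb1 1.46-fold and 0.526-fold. Of 7 class II genes with enough UMIs there, 6 were past 1.5-fold higher in old PBS over young PBS (14.7% of all genes tested there) and 7 past it lower in old rMETRNL over old PBS (7.83%).

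The marker sums of 3 classes were set beside these values. In this Lyve1 sub-cluster the summed dendritic markers were 1.2-fold and 0.839-fold, the summed macrophage/monocyte markers 0.935-fold and 0.985-fold and the summed B markers 0.993-fold and 0.879-fold, with Pax5 and Fcmr at 0 in every library. The part of other cells in the class II values was not tested. The sub-cluster held 257, 252 and 545 cells, with median UMIs of 12939, 8412 and 11844. With all its cells thinned to an equal depth of 2000 UMIs, 50.6%, 79.8% and 44.5% of its cells had at least 1 chain UMI and 28.9%, 63.4% and 25.2% at least 3, with 4, 14 and 21 shallower cells left out.

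The Lyve1 sub-cluster led by Ccl7 and Hbegf, a chemokine and a growth factor ligand, showed the same order of groups. Its chain sum was 3463, 7483 and 3275 CPM, or 2.16-fold (2.13 to 2.19) and 0.438-fold (0.433 to 0.443). Of 8 class II genes tested there, 5 were past 1.5-fold higher in old PBS over young PBS (5.95% of all genes tested) and 8 past it lower in old rMETRNL over old PBS (4.44%). Among the 8 were Ciita, with 153, 266 and 163 UMIs, and H2-Ob, with 19, 33 and 23 UMIs, so both ratios are loose. Cd74 was 1.996-fold and 0.468-fold.

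Other macrophage-like and monocyte-like cells showed smaller differences. Spp1/Gpnmb macrophage-like cells, which express genes of lipid and matrix handling, had 663.9, 1344 and 659.7 CPM of the chains, or 2.02-fold and 0.491-fold, with 6 of 8 class II genes past 1.5-fold higher (3.48% of all genes) and 4 lower (2.63%). The unnamed sub-cluster led by F10 and Fabp4 had 6183, 10358 and 5902 CPM, or 1.68-fold and 0.570-fold, with 4 of 7 higher (3.77%) and 5 lower (2.44%). Interferon-response macrophage-like cells had 5442, 7650 and 4282 CPM, or 1.41-fold and 0.560-fold, with 2 of 10 higher (8.12%) and 6 lower (5.76%). The summed dendritic markers of the interferon-response cells moved the same way, at 1.33-fold and 0.627-fold, as did those of the F10 and Fabp4 sub-cluster, at 1.13-fold and 0.693-fold. They were 1.13-fold and 0.794-fold in the Lyve1 sub-cluster led by Ccl7 and Hbegf and 1.03-fold and 0.774-fold in Il1a/Slc7a11 macrophage-like cells, and their part in the class II values was not tested. Ly6c2 monocyte-like cells led by Ly6c2 and Plac8 had 19107, 26602 and 16853 CPM, or 1.39-fold and 0.633-fold, with 1 of 10 higher (3.57%) and 4 lower (4.11%). Il1a/Slc7a11 macrophage-like cells, marked by inflammatory genes, had 6120, 7949 and 5967 CPM, or 1.299-fold and 0.751-fold, with 0 of 10 past 1.5-fold in either direction, where 8.20% and 7.20% of all genes were.

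**Figure D3:**
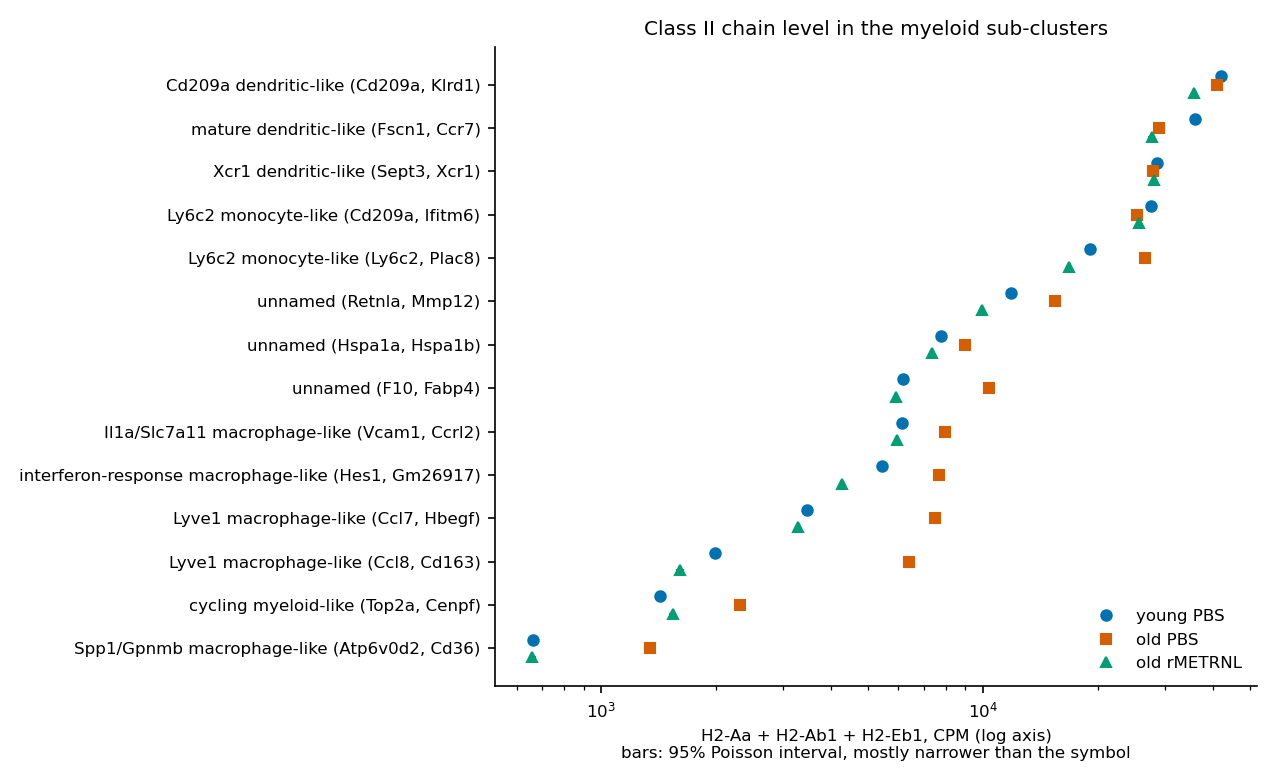
Summed level of H2-Aa, H2-Ab1 and H2-Eb1 in CPM on a log axis for each myeloid sub-cluster; symbols are the 3 libraries and bars 95% Poisson intervals. Old PBS lies to the right of both other libraries in the Lyve1, Spp1/Gpnmb and F10/Fabp4 sub-clusters, and the 3 libraries lie close together in the Xcr1 dendritic-like cells.

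Ciita followed the chains in some sub-clusters and not in others. It was above 1 in 8 of 11 macrophage/monocyte sub-clusters for old PBS over young PBS, with a median of 1.09, but its interval lay above 1 in 4 of them. It was below 1 in 9 of 11 for old rMETRNL over old PBS, with a median of 0.754 and 6 intervals below 1. The highest Ciita level was that of the sub-cluster led by Cd209a and Ifitm6, with 132.8, 121.0 and 150.5 CPM, above every dendritic-like sub-cluster. In Ly6c2 monocyte-like cells led by Ly6c2 and Plac8 it was 40.1, 56.3 and 42.4 CPM, or 1.40-fold (1.17 to 1.68) and 0.753-fold (0.632 to 0.896).

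The peptide exchange genes differed less than the chains. H2-DMa was above 1 in 9 of 11 macrophage/monocyte sub-clusters for old PBS over young PBS, with a median of 1.16 and a highest value of 1.55, and below 1 in 11 of 11 for old rMETRNL over old PBS, with a median of 0.810. H2-DMb1 was above 1 in 10 of 11, with a median of 1.19, and below 1 in 11 of 11, with a median of 0.740. For H2-DMb2, H2-Oa and H2-Ob the sub-clusters were split or too thinly counted, with intervals clear of 1 in at most 2 of 11 for either ratio.

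In dendritic-like cells the groups were closer together. The chain sum was 34168, 33761 and 30445 CPM, or 0.988-fold (0.981 to 0.995) and 0.902-fold (0.896 to 0.908). The first ratio was 1.003 under either a stricter or a looser cell filter, so it has no firm direction. Cd74 had 22688, 22582 and 20156 CPM, or 0.995-fold (0.987 to 1.004) and 0.893-fold (0.885 to 0.9002). Ciita had 74.7, 64.3 and 67.1 CPM, with both intervals including 1. H2-DMa had 602.1, 534.7 and 580.0 CPM, or 0.888-fold and 1.08-fold, and H2-DMb1 662.4, 569.7 and 619.1 CPM, or 0.860-fold and 1.09-fold. Both were lowest in old PBS.

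The H2-O genes and H2-DMb2 also stayed within 1.5-fold in both comparisons with old PBS. H2-Oa had 139.2, 112.7 and 99.1 CPM in dendritic-like cells, or 0.809-fold (0.720 to 0.909) and 0.879-fold (0.778 to 0.994). H2-Ob had 83.2, 87.4 and 79.4 CPM, and H2-DMb2 106.1, 92.7 and 68.1 CPM, or 0.874-fold (0.767 to 0.996) and 0.734-fold (0.637 to 0.846). For old rMETRNL over young PBS, H2-DMb2 was 0.642-fold, which is past 1.5-fold. In the 2 comparisons with old PBS none of the 10 passed 1.5-fold in either direction in this class, where 13.3% and 11.4% of 9470 genes did (6.01% and 6.33% higher, 7.24% and 5.08% lower). The median log2 ratio of the 10 was -0.11 and -0.14, against -0.02 and 0.03 over all tested genes, and the summed dendritic markers of the class were themselves 1.24-fold and 0.746-fold.

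In chain level Cd209a dendritic-like cells lay above Xcr1 dendritic-like cells in every library. Cd209a dendritic-like cells had 42127, 41098 and 35652 CPM of the chains, or 0.976-fold and 0.868-fold, and Xcr1 dendritic-like cells 28535, 27908 and 28020 CPM, or 0.978-fold and 1.004-fold. Mature dendritic-like cells, with 79, 53 and 62 cells, had 36000, 28875 and 27664 CPM, or 0.802-fold (0.786 to 0.818) and 0.958-fold. The summed dendritic markers of the mature cells were 1.35-fold and 0.867-fold and their summed macrophage/monocyte markers 1.24-fold and 0.284-fold. Ciita there was 0.549-fold and 0.971-fold, and the part of the markers in these values was not tested. Ciita in Xcr1 dendritic-like cells was 99.7, 50.9 and 80.5 CPM from 193, 73 and 191 UMIs, or 0.511-fold (0.385 to 0.672) and 1.58-fold (1.2 to 2.1). In Cd209a dendritic-like cells it was 55.7, 79.7 and 64.4 CPM, or 1.43-fold (1.14 to 1.81) and 0.807-fold (0.651 to 1.003). The summed dendritic markers were 1.36-fold and 0.666-fold in Cd209a dendritic-like cells and the summed macrophage/monocyte markers 1.52-fold and 0.669-fold in Xcr1 dendritic-like cells, and their part in the Ciita values was not tested.

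Mature dendritic-like cells had little H2-DM RNA beside their chains. H2-DMa was 196.5, 166.9 and 128.6 CPM there, against 595.2 to 691.5 CPM in Cd209a and Xcr1 dendritic-like cells. H2-DMb1 was 202.0, 110.1 and 138.5 CPM, against 592.6 to 769.1 CPM. H2-DMb2, the second beta chain, ran the other way with 207.5, 108.3 and 158.3 CPM in mature dendritic-like cells, against 47.2 to 63.5 CPM in Xcr1 and 76.2 to 124.8 CPM in Cd209a dendritic-like cells, a range that it overlapped.

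H2-O RNA was found mainly in dendritic-like, plasmacytoid and B-like cells and in 1 monocyte-like sub-cluster. H2-Oa was 124.0 to 196.9 CPM in Cd209a dendritic-like cells, 55.1 to 91.9 CPM in Xcr1 dendritic-like cells and 45.4 to 67.7 CPM in plasmacytoid dendritic-like cells. H2-Ob was 102 to 111 CPM in Xcr1 and 72.8 to 96.3 CPM in Cd209a dendritic-like cells, 2 ranges that did not overlap, and 82.3 to 296.3 CPM in the few B-like cells. The Ly6c2 monocyte-like sub-cluster led by Cd209a and Ifitm6 had 61.6 to 103.6 CPM of H2-Oa, overlapping Xcr1 dendritic-like cells, and 24.6 to 46.2 CPM of H2-Ob. Ly6c2 monocyte-like cells led by Ly6c2 and Plac8 had only 4.07 to 5.04 CPM of H2-Oa and 4.07 to 6.17 CPM of H2-Ob, and the macrophage-like sub-clusters with Spp1 or Lyve1 at most 2.07 CPM of H2-Oa.

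Cd74 relative to the chains set the cell types apart. In macrophage/monocyte-like cells 0.842, 0.813 and 0.826 Cd74 UMIs were counted per chain UMI, and in dendritic-like cells 0.664, 0.669 and 0.662. Spp1/Gpnmb macrophage-like cells had 1.01, 0.952 and 0.986, and plasmacytoid dendritic-like cells 1.11, 1.3 and 1.13. Among these cells the spread between cell types was larger than that between groups. It was not so in every small sub-cluster, with 1.21, 0.636 and 1.04 in that led by Ctsk and Slc9b2 (61, 8 and 17 cells). The old PBS value of macrophage/monocyte-like cells lay below that of young PBS by more than counting error (0.810 to 0.816 against 0.839 to 0.846).

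**Figure D4:**
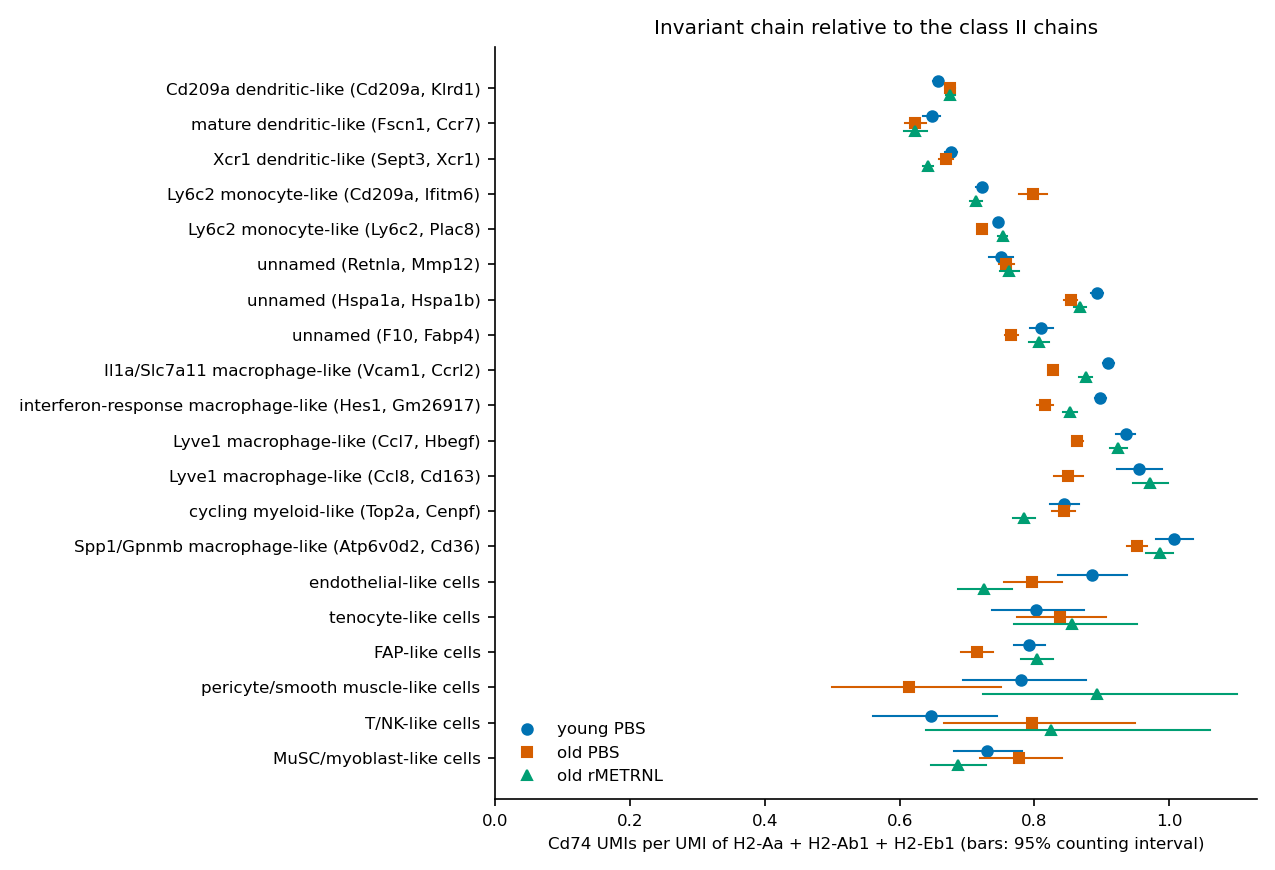
Cd74 UMIs per UMI of H2-Aa, H2-Ab1 and H2-Eb1 in each cell class or sub-cluster drawn; symbols are the 3 libraries and bars 95% counting intervals. Xcr1 and mature dendritic-like cells lie between 0.623 and 0.676, and Spp1/Gpnmb macrophage-like cells between 0.952 and 1.01.

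The shares of the 3 chains varied between cell types. H2-Ab1 made up 32.6% to 33.6% of the chain UMIs in macrophage/monocyte-like cells and 36.2% to 37.0% in Xcr1 dendritic-like cells, but 29.5% to 31.0% in the Lyve1 macrophage-like cells led by Ccl7 and Hbegf. H2-Eb1 made up 26.3% to 28.4% in Spp1/Gpnmb and 26.8% to 27.6% in Il1a/Slc7a11 macrophage-like cells, against 31.7% to 32.5% in Ly6c2 monocyte-like cells led by Ly6c2 and Plac8. In mature dendritic-like cells H2-Ab1 made up 25.5%, 23.6% and 22.9%, while H2-Eb1 made up 37.2%, 37.5% and 38.9%. In plasmacytoid dendritic-like cells H2-Eb1 made up 23.4%, 26.6% and 22.0%. The low H2-Ab1 share set mature dendritic-like cells apart from Cd209a and Xcr1 dendritic-like cells in each of the 3 libraries, while the interval of the plasmacytoid value in old PBS (22.8% to 30.7%) included the shares of Spp1/Gpnmb and Il1a/Slc7a11 macrophage-like cells there.

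Cell by cell, chain RNA was graded and not a simple on or off state. After thinning to 2000 UMIs, 69.9%, 77.1% and 62.1% of macrophage/monocyte-like cells had at least 1 chain UMI, with 110, 201 and 167 shallower cells left out, and 92.3%, 95.8% and 88.7% did without thinning. As background, 11.4%, 17.2% and 14.0% of MuSC/myoblast-like cells had 1 after thinning and 73.3%, 75.8% and 72.4% without it, at median UMIs of 29845, 27258 and 29212 against 13920, 14665 and 14267 in macrophage/monocyte-like cells. The median thinned cell of the macrophage/monocyte-like class had 4, 8 and 2 chain UMIs, and 20.2%, 23.8% and 16.3% of cells had 30 or more. In dendritic-like cells 97.1%, 99.4% and 97.2% had at least 1 and 87.7%, 89.1% and 83.8% had 30 or more.

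**Figure D5:**
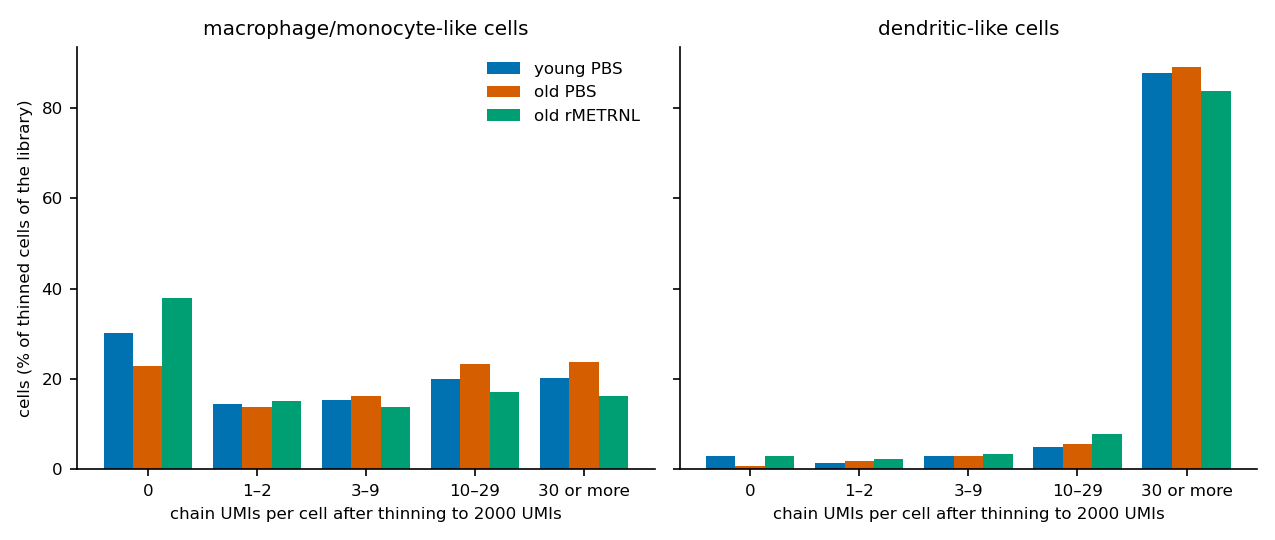
Share of cells (% of the thinned cells of each library) by number of chain UMIs per cell after thinning to 2000 UMIs, for macrophage/monocyte-like and dendritic-like cells. In macrophage/monocyte-like cells old PBS has the smallest share at 0 (22.9%) and old rMETRNL the largest (37.9%); most dendritic-like cells sit at 30 or more.

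Among macrophage/monocyte-like cells Ciita, H2-DMa and H2-DMb1 were higher in cells with more chain RNA in each library. In macrophage/monocyte-like cells with no chain UMI after thinning, Ciita was 4.95, 3.895 and 4.82 CPM, and in cells with 30 or more it was 83.3, 59.2 and 81.2 CPM. H2-DMa was 90.6, 72.9 and 74.8 CPM in the first and 599.2, 536.8 and 560.9 CPM in the second, so it was also found in cells with little chain RNA. Among the cells with 30 or more chain UMIs, Ciita, H2-DMa, H2-DMb1 and Cd74 were each lowest in old PBS. In dendritic-like cells H2-DMa had no such steady order, with 659.6 CPM at 0 chain UMIs, 299.9 CPM at 3 to 9 and 604.1 CPM at 30 or more in old rMETRNL, the lower bands holding 15 and 18 cells. The chain level was used to sort these cells, so these values are a description.

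In endothelial-like cells the class II genes were scarce and highest in old PBS. The chain sum was 263.9, 476.3 and 289.1 CPM, or 1.81-fold (1.71 to 1.90) and 0.607-fold (0.577 to 0.639), and 6 of 7 genes with enough UMIs were past 1.5-fold higher (9.46% of all genes) and then 6 lower (7.09%). The summed macrophage/monocyte markers in these cells were 596.0, 1036 and 853.1 CPM, or 1.74-fold and 0.823-fold, with none of the 12 at 0. Median UMIs of these cells were 11058, 3722 and 6650. The part of the markers or of the depth in the class II values was not tested.

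Over all kept cells the chain sum was 4300, 5469 and 3706 CPM, or 1.27-fold (1.27 to 1.28) and 0.678-fold (0.676 to 0.680). Macrophage/monocyte-like cells gave 52.8%, 64.2% and 57.3% of all UMIs. With every class given its share of UMIs in young PBS the ratios were 1.13 and 0.719, and with the myeloid sub-clusters held as well 1.28 and 0.708. The mean of each cell's own CPM gave 1.001 for old PBS over young PBS, so the value over all cells depends on how cells of unequal depth are weighed.

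Other genes of the pathway were mostly within 1.5-fold. The list held 32 genes of class II transcription, the interferon gamma route, antigen processing, surface turnover and costimulation, and other class II genes. Of the 32, 31 had enough UMIs in macrophage/monocyte-like cells. Of these, 1 was higher in old PBS than in young PBS, Irf4, a transcription factor of myeloid and lymphoid cells, with 12.6, then 22.7 CPM (1.81-fold, 1.69 to 1.94), where 6.52% of all tested genes were higher. In old rMETRNL over old PBS 0 were higher and 1 lower, H2-Eb2, a further class II beta chain gene (0.628-fold, 0.453 to 0.866, from 68 and 95 UMIs), where 5.88% and 3.77% of all tested genes were.

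In dendritic-like cells 31 of the 32 were measured as well. In old PBS over young PBS 3 were higher, Prdm1, a repressor of Ciita, with 2.01-fold, Ctsd, an endosomal protease, with 2.09-fold, and Cd40, a costimulatory receptor, with 1.54-fold, where 6.01% of all tested genes were higher. In old rMETRNL over old PBS, which shares the old PBS library, 0 were higher and 3 lower, Prdm1, Ctsd and Cd40, with 0.452-fold (0.350 to 0.581), 0.518-fold (0.470 to 0.571) and 0.635-fold (0.569 to 0.708), where 5.08% of all tested genes were lower. These counts on a list of 31 are not far from the background. The 2 lower in old PBS over young PBS, Rfxank and Cd4, had intervals that included 1, where 7.24% of all tested genes were lower.

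Across 20 cell groups in 3 libraries, 60 units in all, the log2(CPM + 1) of other class II genes ran with the chain sum at a Pearson r of 0.998 for Cd74, 0.956 for H2-DMb1, 0.945 for Ciita, 0.941 for H2-DMa, 0.817 for H2-DMb2, 0.742 for H2-Ob and 0.689 for H2-Oa. Of 13343 genes compared, the 5 others most like it were Il1b, an inflammatory cytokine (0.948), Plbd1 (0.931), Gm36486 (0.930), A530032D15Rik (0.924) and Synj1 (0.917). Within the 42 myeloid units these 5 had 0.846, 0.773, 0.787, 0.775 and 0.706. There Cd74 had 0.998, but Ciita had 0.838, H2-DMb1 0.8295 and H2-DMa 0.794. H2-DMb2 had 0.8445, H2-Oa 0.790 and H2-Ob 0.775, so Il1b lay above all of these except Cd74. The units share libraries and depth, so these values are a description with no test.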

How the data were processed

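Cells dissociated from damaged muscle were run as 1 library per group on a 10x Genomics Chromium platform. The deposited matrices hold raw UMI counts per gene and barcode, which the authors made with Cell Ranger. The file headers name version 5.0.0, the submitters' processing notes name 5.0.0 and 3.1.0, and the build is mm10. Gene locations came from GENCODE M21, which matched 32158 of 32285 identifiers, and upstream sequences from RefSeq. No promoter entry was used for H2-Ab1, Cd74 or Ciita.

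A barcode was kept if it had 500 or more genes and less than 10% of its UMIs from mitochondrial genes. The barcodes with the highest Scrublet scores were removed as doublets, at a rate of 0.8% for every 1000 barcodes of a library (1179, 1261 and 1559 barcodes), while the automatic threshold of the tool called 147, 91 and 224. Cells were clustered with Scanpy 1.11.5 and the Leiden method (2000 variable genes, 30 components, 20 neighbours, resolution 0.8) without the class II genes, and named from marker lists. UMIs were summed per cell group and library and scaled to CPM. With 1 library per group no test was made. Levels have exact Poisson intervals, shares exact Clopper-Pearson intervals and ratios exact conditional intervals, all at 95% and for counting error only. These interval routines were tested on simulated data. For genes with at least 50 UMIs over the 3 libraries, the ratio between 2 libraries was held against 1.5-fold. The count of class II genes past it was read beside the share of all such genes. To compare shares of cells, each cell was thinned to 2000 UMIs and shallower cells were left out.

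The class II genes, the pathway list and the marker lists were chosen with earlier results of these data known, and the rules for naming clusters were revised after the cluster tables, though not the class II levels, had been seen. All 10 class II genes were named, together with pathway genes past 1.5-fold in macrophage/monocyte-like or dendritic-like cells and the 5 genes most like the chain sum. Which promoters to print was decided after the search, and that of H2-DMb1 was printed only as a site because it overlaps an annotated UTR. Counts near 3′ ends are not comparable between genes, so levels of different genes were not ranked. Alternatives changed the cell filter, doublet calls, resolution, clustering genes, scaling, thinning, gates, background and class make-up. Some results for single genes of the pathway and marker lists are not reported here.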

Additional observations from a re-analysis of the deposited data

How the results depend on the processing

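No paired analysis was possible because each group is 1 library and the labels give no replicate numbers that link the groups. With 1 library per group, leaving out a replicate was not possible either. The stricter filter asked for 1000 genes and under 5% mitochondrial UMIs, and the looser one for 200 genes and under 20%. The automatic doublet threshold, the fixed sub-cluster shares and both placements of the Cd209a and Ifitm6 sub-cluster were chosen after seeing the data. Of 560 alternative values for the class II genes in macrophage/monocyte-like and dendritic-like cells, 490 lay on the same side of 1 as the reported ratio, and of 162 for the chain sum in smaller groups 152 did. Size factors shifted the median of all genes by -0.05 to 0.05 on the log2 scale. Where a value changed side, the cause was not tested.

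In macrophage/monocyte-like cells the chain sum kept its direction under every alternative run. Old PBS over young PBS was 1.244 with class II genes used in clustering, 1.230 with resolution 0.4, 1.221 with resolution 1.6, 1.141 with doublets kept, 1.107 with the stricter cell filter, 1.253 with the looser cell filter, 1.119 with the automatic doublet threshold, 1.104 with the mean of per-cell CPM, 1.116 with thinning, 1.150 with size factors, 1.299 with marker gates, 1.146 with the MuSC/myoblast-like level subtracted, 1.371 with fixed sub-cluster shares and 1.278 with the Cd209a and Ifitm6 sub-cluster left out. Old rMETRNL over old PBS was 0.6241 with class II genes used in clustering, 0.6316 with resolution 0.4, 0.6277 with resolution 1.6, 0.6766 with doublets kept, 0.6877 with the stricter cell filter, 0.6260 with the looser cell filter, 0.6841 with the automatic doublet threshold, 0.7243 with the mean of per-cell CPM, 0.7283 with thinning, 0.6558 with size factors, 0.6147 with marker gates, 0.6654 with the MuSC/myoblast-like level subtracted, 0.6623 with fixed sub-cluster shares and 0.6160 with the Cd209a and Ifitm6 sub-cluster left out. Over all kept cells old PBS over young PBS was 1.225 with the stricter cell filter, 1.266 with the automatic doublet threshold, 1.001 with the mean of per-cell CPM, 1.047 with thinning, 1.319 with size factors and 1.129 with fixed class shares. Old rMETRNL over old PBS was 0.6729 with doublets kept, 0.6902 with the stricter cell filter, 0.6747 with the automatic doublet threshold, 0.8169 with the mean of per-cell CPM, 0.8086 with thinning, 0.6549 with size factors and 0.7193 with fixed class shares.

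In dendritic-like cells the small difference of the chain sum between old PBS and young PBS changed side. It was 0.9446 with class II genes used in clustering, 0.8717 with resolution 0.4, 0.9810 with resolution 1.6, 0.9780 with doublets kept, 1.003 with the stricter cell filter, 1.003 with the looser cell filter, 0.9645 with the automatic doublet threshold, 0.9968 with size factors, 0.9535 with fixed sub-cluster shares and 1.028 with the Cd209a and Ifitm6 sub-cluster counted as dendritic. Old rMETRNL over old PBS stayed below 1 and was 0.9486 with class II genes used in clustering, 0.9680 with resolution 0.4, 0.9339 with resolution 1.6, 0.9137 with doublets kept, 0.9224 with the looser cell filter, 0.9102 with the automatic doublet threshold, 0.8852 with size factors, 0.8642 with marker gates, 0.9179 with fixed sub-cluster shares and 0.8854 with the Cd209a and Ifitm6 sub-cluster counted as dendritic. For Cd209a dendritic-like cells old PBS over young PBS changed side, at 1.055 with resolution 0.4, 1.050 with resolution 1.6, 1.014 with doublets kept and 1.005 with the automatic doublet threshold, and for Xcr1 dendritic-like cells at 1.002 with resolution 1.6.

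The genes counted least, and those near 1, changed side in macrophage/monocyte-like cells. For old PBS over young PBS, Ciita was 1.111 with fixed sub-cluster shares, H2-DMa 1.017 with marker gates and 1.120 with fixed sub-cluster shares, and H2-DMb1 1.014 with class II genes used in clustering, 1.0 (on neither side) with resolution 0.4, 1.021 with the looser cell filter, 1.060 with marker gates, 1.154 with fixed sub-cluster shares and 1.035 with the Cd209a and Ifitm6 sub-cluster left out. H2-DMb2 was 1.041 with the looser cell filter, 1.065 with marker gates and 1.040 with the Cd209a and Ifitm6 sub-cluster left out, and H2-Ob 1.068 with class II genes used in clustering, 1.070 with resolution 0.4, 1.054 with resolution 1.6, 1.083 with the looser cell filter, 1.109 with marker gates and 1.086 with the Cd209a and Ifitm6 sub-cluster left out. For old rMETRNL over old PBS, H2-DMb2 was 0.8896 with class II genes used in clustering, 0.9388 with resolution 0.4, 0.9015 with resolution 1.6, 0.8887 with the looser cell filter, 0.9700 with marker gates, 0.9908 with fixed sub-cluster shares and 0.9371 with the Cd209a and Ifitm6 sub-cluster left out. H2-Oa was 0.7619 with class II genes used in clustering, 0.8792 with resolution 0.4, 0.8420 with resolution 1.6, 0.7323 with the looser cell filter, 0.8751 with marker gates, 0.9954 with fixed sub-cluster shares and 0.8510 with the Cd209a and Ifitm6 sub-cluster left out. H2-Ob lay below 1 in 8 of 14 alternatives, over a range of 0.767 to 1.33, and Ciita above 1 in 3 of 14, with a highest value of 1.02. In dendritic-like cells old PBS over young PBS was 1.006 with the Cd209a and Ifitm6 sub-cluster counted as dendritic for H2-Eb1 and 1.032 with thinning for H2-DMb2, and it lay on the other side of 1 in 4 of 14 alternatives for H2-Aa and for H2-Ob and in 5 of 14 for H2-Ab1 and for Cd74. For old rMETRNL over old PBS, Ciita changed side in 1 of 14 and H2-Ob in 3 of 14, and H2-Oa was 1.178 with class II genes used in clustering, 1.140 with resolution 0.4 and 1.087 with the looser cell filter.

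The 2 genes past 1.5-fold between old PBS and young PBS became 0 with class II genes used in clustering, either other resolution, the looser filter, marker gates or the Cd209a and Ifitm6 sub-cluster left out (12.9% to 15.5% of all tested genes), 3 with doublets kept, the automatic doublet threshold (14.0% each) or the mean of per-cell CPM (16.8%), 4 at a lower fold limit (31.9%) and 1 at 2-fold (4.42%). The 2 between old rMETRNL and old PBS became 4 under the settings that gave 0 (9.43% to 11.9%), 3 with size factors (9.61%), 1 with the mean of per-cell CPM (12.5%) or thinning (9.03%), 6 at the lower limit (26.9%) and 0 at 2-fold (2.50%). Depth limits H2-Oa, H2-Ob and H2-DMb2, with 2269 to 2794 UMIs each over all kept cells.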
